A study of Mus musculus with 147 samples.

Results

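The haploid and the tetraploid-content male germ cells of the mouse testis at postnatal day (PND) 30 were compared. The members were chosen from the names of the cells: wild-type cells of PND30 that had been sorted as 1N or as 4N by their DNA content, with more than 2000 genes and 10000 to 1000000 UMIs (unique molecular identifiers, 1 for each captured transcript). They were 572 of the 12692 cells of the series that passed this filter, 286 in each gate. The 1N gate held 192 cells of replicate 1 and 94 of replicate 2, and the 4N gate 191 and 95. Each replicate is 1 mouse by the study's sample table, so both gates of a replicate come from the same animal. All mice were male offspring of BVSC males, which carry *Blimp1*-mVenus and *Stella*-ECFP reporters, and C57BL/6 females. They were wild-type (WT) by their labels, which give no treatment. Cells were stained with Hoechst, sorted by flow cytometry and picked singly by mouth pipette, and after birth the study chose cells with the morphology of germ cells. RNA was read by a modified STRT-seq, which counts the 3′ ends of transcripts, as for all time-points of the series.

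Male germ cells replicate their DNA before meiosis, and as primary spermatocytes (4N) they pair their chromosomes along the synaptonemal complex and exchange DNA by recombination. After a pair of divisions the haploid (1N) round spermatids build the acrosome, the vesicle of enzymes used at fertilization, and the flagellum, and then exchange histones for transition proteins and protamines. In spermatocytes the X and Y chromosomes, which largely lack a pairing partner, are gathered in the sex body and silenced.

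UMIs were summed over the cells of a gate and replicate, which gave 4 sums of 16808218 to 78005360 UMIs, and levels are given as counts per 1000000 UMIs of the sum (CPM). Values in pairs below are those of replicates 1 and 2, in this order. Each library held 1 gate of 1 replicate, with 2 libraries per gate in replicate 1 and 1 in replicate 2, so gate and library cannot be told apart. All 96 cell barcodes occurred in every library, as a plate of barcodes was used again. The 4N cells were deeper, with medians of 437045 and 301187 UMIs per cell against 293844 and 190973. They held more genes per cell, also after each cell was thinned to 10000 UMIs (medians of 4239 and 3972 in 4N against 3863 and 3615.5 in 1N cells). Mitochondrial genes took 0.530% and 0.692% of the UMIs in 4N and 0.325% and 0.271% in 1N cells. With 2 values per gate the exact two-sided permutation test cannot give a p below 0.333, which was its value for each of these measures. The part of these measures in the differences below was not tested.

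Both gates were first checked against the markers of their cells. *Acrv1* (chr9:36693220-36698843 on mm10), an acrosomal vesicle protein, was at 369.8 and 527.1 CPM in 1N and 133.7 and 74.02 CPM in 4N cells. *Tex36* (chr7:133587024-133602158) was at 376.8 and 424.7 CPM in 1N and 128.2 and 59.8 CPM in 4N cells. In both genes all 1N sums lay above all 4N sums, with log2 fold change 2.31 ± 0.34 (SE), adjusted p = 1.70e-09 for *Acrv1* and log2 fold change 2.35 ± 0.35 (SE), adjusted p = 2.95e-09 for *Tex36* (edgeR quasi-likelihood test paired by replicate, Benjamini-Hochberg adjustment over all genes tested; positive values are higher in 1N). *Piwil1* (chr5:128702524-128755474), the PIWI protein of pachytene piRNAs, was the other way round, at 288.1 and 310.8 CPM in 4N and 31.9 and 42.8 CPM in 1N cells (log2 fold change -2.85 ± 0.41 (SE), adjusted p = 5.36e-10). *Ccna1* (chr3:55045469-55055501), the cyclin A of male meiosis, followed the label in replicate 2 only. It was at 334.1 and 191.04 CPM in 1N and 271.1 and 313.9 CPM in 4N cells, with overlapping gates (log2 fold change -0.04 ± 0.33 (SE), adjusted p = 0.931), and its median over single cells was 351.2 and 74.4 CPM in 1N and 241.2 and 304.6 CPM in 4N. The log2 ratio of CPM of *Ccna1* (with 1 CPM added) was 0.30 in replicate 1 and -0.71 in replicate 2. *Ccna1* therefore did not mark the 4N gate in replicate 1.

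**Figure D1:**
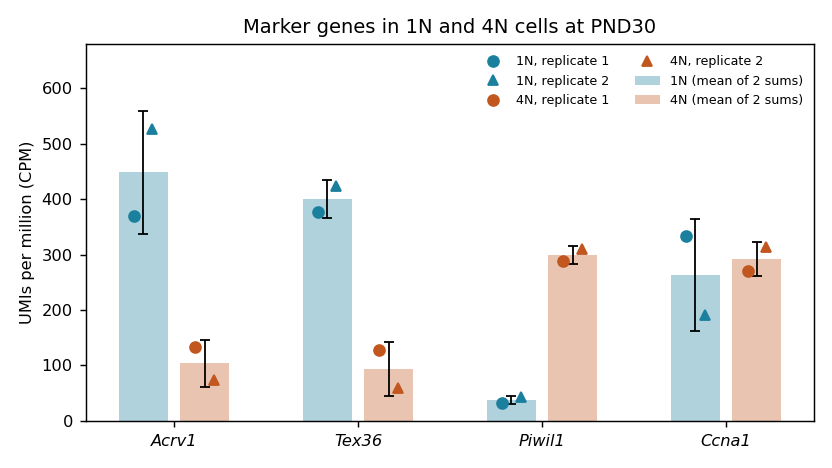
Levels of the 4 marker genes in CPM at PND30. Bars are means of the sums of 2 replicates, error bars the SD, circles replicate 1 and triangles replicate 2. *Acrv1* and *Tex36* are higher in 1N, *Piwil1* is higher in 4N, and the values of *Ccna1* overlap.

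By panels of marker genes, single cells did not all go with their gate. In 69.8% of the 192 and 82.98% of the 94 1N cells (95% Wilson intervals 62.96 to 75.8% and 74.1 to 89.2%) the 16 genes of a round spermatid panel held more UMIs than the 16 genes of a spermatocyte panel. Among 4N cells this was so in 31 of 191 and 7 of 95 (16.2%, 11.7 to 22.1%, and 7.37%, 3.61 to 14.4%). These intervals cover counting error only. The panels were within a factor of 1.5 of each other in 74 and 12 of the 1N cells and in 15 and 1 of the 4N cells. Between the gates 3 of the spermatid genes and 8 of the spermatocyte genes were not called, while 32.1% of all genes tested were called. A higher spermatocyte panel in a 1N cell therefore does not show that it is a spermatocyte. The 4N cells with a higher spermatid panel had a median of 627605 UMIs in replicate 1, against 414266 in the other 160, and of 347471 in replicate 2, against 293227 in the other 88. For 1N cells with a higher spermatid panel the medians were 319320 and 190973 UMIs. The cause of this difference was not tested. In the 2N gate of the same mice both panels were closer to each other, at 5251 and 5079 CPM for spermatids and 4048 and 4686 CPM for spermatocytes, and in cells of replicate 2 not sorted by DNA content at 4581 and 5216 CPM.

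Of 19167 genes tested, 6158 were called at a false discovery rate of 0.05 (32.1%). Higher in 1N cells were 3691 (19.3%), and higher in 4N cells 2467 (12.9%). In 6154 of them both replicates went the same way, and 4 went opposite ways in the 2 replicates. The gates did not overlap in 6067 of the 6158. The calls rest on the same 2 replicates, so neither count is a separate test of them. Of the 6 ways to assign the 4 sums to 2 gates, 2 separate the gates for any gene. A lack of overlap is therefore weak by itself, and its share over all genes tested is not given here. Sums were compared, and fewer cells of a type in a gate and less RNA per cell cannot be told apart. Taken per cell, with the number of cells as the size of the library, the median log2 fold change of all genes moved from 0.07 to -0.75, and 1211 genes were higher in 1N and 5807 in 4N. Values below are shares of the UMIs of a gate unless given as per cell. The number of calls changed with the sums used. Without replicate 2 of the 1N cells edgeR called 0 genes, while 6589 had an unadjusted p under 0.05, and without replicate 2 of the 4N cells 2213 were called. When only cells that went with their gate by the panels were summed, 10362 genes were called, a number given as a description since the panel genes are among them. The fit has 1 residual degree of freedom per gene, and the estimate of the spread was shared by all genes.

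Markers of somatic cells were low in both gates. The 13 genes known for Sertoli cells summed to 24.5 and 1.96 CPM in 1N and 7.82 and 7.46 CPM in 4N cells, and *Sox9* was under 1 CPM in all 4 sums. The 7 Leydig genes summed to 12.3 and 0.773 CPM in 1N and 8.22 and 4.56 CPM in 4N, the 8 peritubular and endothelial genes to 12.6 and 12.1 against 8.01 and 8.74, and the 9 blood and macrophage genes, led by the globin *Hba-a1*, to 75.5 and 19.04 against 27.2 and 8.15. Of these lists 3 members were called. The globins *Hba-a1* and *Hbb-bs* were higher in 1N, with overlapping gates (*Hba-a1* at 27.3 and 4.16 CPM in 1N and 8.74 and 1.45 CPM in 4N cells), and *Star*, which brings cholesterol into mitochondria, was higher in 4N cells, where it was under 5 CPM. The 15 genes of spermatogonia summed to 97.6 and 156.5 CPM in 1N and 135.1 and 116.2 in 4N, *Nanos2* being listed at 0, with *Gfra1* higher in 1N and *Id4* in 4N. Of the 11 genes tested that are known from leptotene and zygotene, 5 were higher in 1N and 3 in 4N, while the 12 genes of the list summed to 244.2 and 264.8 CPM in 1N and 709.5 and 814.1 CPM in 4N. Over all genes 19.3% were higher in 1N and 12.9% in 4N. The 3 of this list higher in 4N, *Hormad1* and *Spo11* among them, held most of the 4N sums. The 5 higher in 1N, *Dmc1* and *Scml2* among them, were low in all sums. Their part in the results was not tested.

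Among genes of the synaptonemal complex more were higher in 4N than in 1N cells. Of 11 tested, 5 were higher in 4N and 2 in 1N, with a median log2 fold change of -0.77 against 0.07 over all genes. Over all genes 12.9% were higher in 4N and 19.3% in 1N, and the 2 higher in 1N are near that share. *Sycp2*, a protein of its lateral elements, was at 292.9 and 360.1 CPM in 4N and 102.5 and 77.2 CPM in 1N cells and *Sycp3*, its partner, at 50.5 and 41.5 CPM in 4N and 15.3 and 7.44 CPM in 1N cells. The gates did not overlap in either (log2 fold change -1.71 ± 0.37 (SE), adjusted p = 6.33e-05 for *Sycp2*). *Hormad1*, which marks axes that have not paired, and *Tex12* of the central element were also higher in 4N (log2 fold changes -1.73 and -1.95). The transverse filament gene *Sycp1* was at 254.5 and 270.1 CPM in 1N and 272.01 and 208.1 CPM in 4N cells and was not called. Of the other central element genes *Syce3* was higher in 1N (log2 fold change 0.81, but -0.015 taken per cell), and *Syce2* was at 141.1 and 240.2 CPM in 1N and 101.7 and 66.5 CPM in 4N cells (log2 fold change 1.32 ± 0.41 (SE), adjusted p = 0.00775).

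The cohesins, rings that hold sister chromatids together, went both ways, with 4 of 14 higher in 1N and 3 in 4N, which is near the shares of all genes (19.3% and 12.9%). *Rec8*, the meiotic kleisin, was at 70.1 and 41.5 CPM in 1N and 21 and 6.80 CPM in 4N cells (log2 fold change 2.33 ± 0.54 (SE), adjusted p = 2.17e-04), and *Rad21*, its mitotic form, and *Smc3*, a subunit of all cohesins, were higher in 1N as well (log2 fold changes 1.54 and 1.81). In contrast, *Sgo2a*, the protector of centromeric cohesin, was at 34.3 and 53 CPM in 4N and 11.2 and 8.21 CPM in 1N cells (log2 fold change -1.98 ± 0.55 (SE), adjusted p = 0.00269). *Stag3*, a cohesin subunit of meiosis, at 254.03 and 256.1 CPM in 4N and 140.7 and 112.5 CPM in 1N cells, did not pass the test (adjusted p = 0.0572).

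Of 30 tested genes for the formation and repair of DNA breaks, 11 were higher in 4N and 4 in 1N (median log2 fold change -0.80). The shares over all genes, for these and the sex body genes below, were 12.9% and 19.3%. *Spo11*, which makes the breaks, was at 179.9 and 172.1 CPM in 4N and 67.7 and 49.9 CPM in 1N cells. *Dmc1*, a strand exchange protein of meiosis, was low in all sums and higher in 1N (2.54 and 6.31 CPM in 1N and 0.615 and 0.829 CPM in 4N cells). The largest differences were in genes of crossovers, *Mlh3* at 69.4 and 61.9 CPM in 4N and 8.53 and 6.54 CPM in 1N cells (log2 fold change -2.97 ± 0.55 (SE), adjusted p = 2.35e-06) and *Ccnb1ip1*, which turns recombination sites into crossovers, at 19.3 and 19.7 CPM in 4N and 1.77 and 2.68 CPM in 1N cells (log2 fold change -3.01 ± 0.63 (SE), adjusted p = 4.28e-05). For the sex body and its silencing, 9 of 14 genes were higher in 4N and 1 in 1N (median log2 fold change -1.60). Among them were the kinase *Atr*, at 144.2 and 197.9 CPM in 4N and 40.9 and 26.3 CPM in 1N cells (log2 fold change -2.20 ± 0.45 (SE), adjusted p = 2.92e-05), its activator *Topbp1*, at 29.1 and 34.7 CPM in 4N and 3.56 and 4.58 CPM in 1N cells, the 9-1-1 clamp subunit *Rad1*, at 33.8 and 28.6 CPM in 4N and 3.33 and 3.93 CPM in 1N cells, and *Mdc1*, at 83.8 and 103.7 CPM in 4N and 32.9 and 19.2 CPM in 1N cells, which spreads the signal into chromatin loops. The gates did not overlap in these 4 genes. The exception was *Scml2*, a Polycomb protein whose gene is on the X chromosome, with a log2 fold change of 1.65.

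For the meiotic divisions, 14 of 33 genes were higher in 4N and 1 in 1N cells (median log2 fold change -0.98). The shares over all genes were 12.9% and 19.3%. Called were the cyclin-dependent kinases *Cdk1* and *Cdk2* (125.04 and 118.1 CPM in 4N and 15.7 and 19.5 CPM in 1N cells; log2 fold change -2.63 ± 0.49 (SE), adjusted p = 2.76e-06), the checkpoint genes *Mad2l1*, *Bub1b* and *Bub3*, and *Fbxo43*, an inhibitor of the anaphase-promoting complex, at 73.2 and 76.5 CPM in 4N and 9.15 and 9.28 CPM in 1N cells. Of the B-type cyclins *Ccnb1* and *Ccnb2* did not pass the test. *Ccnb1* was at 352.2 and 201.99 CPM in 1N and 166.4 and 219.1 CPM in 4N cells and *Ccnb2* at 481.1 and 399.9 CPM in 1N and 379.8 and 445.1 CPM in 4N cells, and their gates were not separated beyond the spread. The 1 gene higher in 1N was the X-linked cyclin *Ccnb3*, which stayed under 3 CPM in all sums.

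Genes of the piRNA pathway, which make small RNAs that guard germ cells against transposons, were more often higher in 4N than in 1N cells. Of 26 tested, 14 were higher in 4N and 4 in 1N (median log2 fold change -1.20). Over all genes 12.9% were higher in 4N and 19.3% in 1N. *Tdrd5*, a Tudor protein of piRNA production, was at 148.1 and 143.1 CPM in 4N and 7.96 and 16.4 CPM in 1N cells (log2 fold change -3.51 ± 0.50 (SE), adjusted p = 5.68e-10). *Piwil2*, another PIWI protein, was at 96.8 and 103.4 CPM in 4N and 22.6 and 14.9 CPM in 1N cells and *Mybl1*, the transcription factor of pachytene piRNA genes, at 37.8 and 61.8 CPM in 4N and 14.6 and 7.91 CPM in 1N cells. The helicase *Mov10l1* and the trimming and methylating enzymes *Pnldc1* and *Henmt1* were higher in 4N too (log2 fold changes -1.47, -1.80 and -1.36). By comparison, the 4 higher in 1N were *Btbd18*, a pachytene piRNA regulator, and 3 gametocyte-specific factors, *Gtsf1l* at 344.6 and 660.9 CPM in 1N and 127.03 and 87.2 CPM in 4N cells (log2 fold change 2.34 ± 0.33 (SE), adjusted p = 3.66e-10), *Gtsf2* at 457.9 and 424.2 CPM in 1N and 203.9 and 178.5 CPM in 4N cells and *Gtsf1* at 645.6 and 866.96 CPM in 1N and 505.2 and 568.3 CPM in 4N cells. For *Gtsf1* the log2 fold change of 0.64 turned to -0.18 taken per cell.

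Of 35 regulators of transcription and translation, 5 were higher in 1N and 7 in 4N, with a median log2 fold change of 0.07, counts near the 19.3% and 12.9% of all genes. The 5 were *Sox5*, *Fhl5*, the coactivator of CREM, *Creb3l4*, *Taf7l* and *Paip2*, a regulator of poly(A)-binding protein. *Fhl5* was at 280.3 and 553.4 CPM in 1N and 105.1 and 63.01 CPM in 4N cells (log2 fold change 2.44 ± 0.36 (SE), adjusted p = 1.23e-09) and *Sox5* at 286.8 and 374.9 CPM in 1N and 104.01 and 47.4 CPM in 4N cells. *Crem* itself, the switch of the spermatid program, was at 486.7 and 470.9 CPM in 1N and 345.3 and 346.3 CPM in 4N cells (log2 fold change 0.63 ± 0.28 (SE), adjusted p = 0.0719) and did not pass the test. Among the 7 higher in 4N were *Meioc* and *Ythdc2*, RNA regulators of meiotic entry, and *Boll*, a translation factor, at 199.2 and 216.9 CPM in 4N and 92.9 and 74.96 CPM in 1N cells.

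Genes of spermatid chromatin were mostly higher in 1N. Of 23 tested genes of histone exchange and nuclear condensation, 12 were higher in 1N and 2 in 4N (median log2 fold change 1.85). The shares over all genes were 19.3% and 12.9%. The protamine genes *Prm1* and *Prm2* were at 1081 and 2030 CPM in 1N and 214.3 and 251.9 CPM in 4N cells, and at 901.7 and 1548 CPM in 1N and 167.6 and 174.7 CPM in 4N cells, respectively. The transition protein genes *Tnp1* and *Tnp2* were at 677.7 and 1173 CPM in 1N and 165.8 and 176.01 CPM in 4N cells, and at 948.4 and 1591 CPM in 1N and 213.3 and 217.7 CPM in 4N cells. In all 4 genes replicate 2 was the higher of the 1N sums and the gates did not overlap (log2 fold change 2.83 ± 0.23 (SE), adjusted p = 6.61e-31 for *Prm1*). The linker histones of spermatids *Hils1* and *H1fnt* and the variant *H2al2a* rose with log2 fold changes of 2.47, 2.50 and 2.80. The bromodomain protein *Brdt*, which binds acetylated histones, was at 232.8 and 257.6 CPM in 4N and 182.6 and 125.95 CPM in 1N cells and was not called, and *Smarca4*, a chromatin remodeller, was at 207.1 and 220.1 CPM in 4N and 74.7 and 40.04 CPM in 1N cells. All 10 genes known from late, elongating spermatids were higher in 1N (median log2 fold change 2.44). Each of the 10 is also in the list of spermatid chromatin, flagellum or energy metabolism, so this list adds no separate support.

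Acrosome genes fell into a group higher in 1N and a group that did not differ by the test. Of 42, 23 were higher in 1N, 3 in 4N and 16 were not called (median log2 fold change 1.91). Over all genes 19.3% were higher in 1N and 12.9% in 4N. *Spaca1*, a membrane protein of the acrosome, was at 467.01 and 570.6 CPM in 1N and 166.1 and 73.8 CPM in 4N cells (log2 fold change 2.38 ± 0.33 (SE), adjusted p = 1.20e-10), *Spaca3* at 428.8 and 586.7 CPM in 1N and 144.8 and 79.6 CPM in 4N cells and *Izumo1*, the sperm ligand of the egg, at 156.3 and 208.5 CPM in 1N and 68.9 and 30.2 CPM in 4N cells. *Izumo1* overlaps *Rasip1* on the same strand. *Cylc2* and *Actl7a*, of the perinuclear theca, were at 307.1 and 471.97 CPM in 1N and 91.7 and 44.02 CPM in 4N cells and at 317.1 and 480.7 CPM in 1N and 112.1 and 56.3 CPM in 4N cells. The proacrosin gene *Acr* was at 414.3 and 379.99 CPM in 1N and 360.8 and 365.9 CPM in 4N cells (log2 fold change 0.29 ± 0.29 (SE), adjusted p = 0.459), which did not pass the test. The 3 higher in 4N were *Gopc*, a Golgi protein of acrosome formation, at 51.2 and 44.5 CPM in 4N and 7.38 and 7.85 CPM in 1N cells (log2 fold change -2.49 ± 0.56 (SE), adjusted p = 1.38e-04), *Golga3* and *Tmprss12*.

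Of 75 flagellum genes, 23 were higher in 1N, 10 in 4N and 42 were not called (median log2 fold change 0.22). Over all genes 19.3% were higher in 1N and 12.9% in 4N, and the share higher in 4N among flagellum genes was near that, so its members are given as single values. Those higher in 1N included the fibrous sheath anchors *Akap3* and *Akap4*, *Odf1* of the outer dense fibers and the testis kinases *Tssk1*, *Tssk2*, *Tssk3*, *Tssk4* and *Tssk6*, with log2 fold changes of 2.32 for *Tssk4* to 2.85 for *Tssk6*. *Akap4* was at 271.96 and 450.1 CPM in 1N and 95.2 and 57.2 CPM in 4N cells (log2 fold change 2.41 ± 0.37 (SE), adjusted p = 5.87e-09). Of the genes of the CatSper channel, the pore subunits *Catsper1*, *Catsper3* and *Catsper4* were higher in 1N (log2 fold changes 1.82, 2.14 and 2.25) and the auxiliary subunits *Catsperb* and *Catsperg1* in 4N (log2 fold changes -1.21 and -1.46). The pore subunit *Catsper2* and the auxiliary subunits *Catsperd* and *Catsperz* were not called (log2 fold changes -0.17, -0.74 and 0.22). The dynein heavy chain genes *Dnah2*, *Dnah7a* and *Dnah8* and the ruler proteins of cilia *Ccdc39* and *Ccdc40* were higher in 4N, *Dnah8* at 452.8 and 693.3 CPM in 4N and 285.2 and 278.9 CPM in 1N cells, while *Dnah3* was higher in 1N (log2 fold change 1.88). Taken per cell, 14 flagellum genes were higher in 1N and 22 in 4N.

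Genes of sperm energy metabolism were higher in 1N in 11 and in 4N in 3 of 29 cases (median log2 fold change 0.32). Over all genes 19.3% were higher in 1N and 12.9% in 4N, and the 3 higher in 4N are near that share. Of the 11, 8 were enzymes of glycolysis. *Aldoart2*, an aldolase of spermatids, was at 281.4 and 338.2 CPM in 1N and 92.4 and 40.9 CPM in 4N cells (log2 fold change 2.49 ± 0.39 (SE), adjusted p = 1.27e-08), the hexokinase *Hk1* at 276.6 and 355.5 CPM in 1N and 170.6 and 132.5 CPM in 4N cells, *Gpi1* at 110.7 and 217.5 CPM in 1N and 48.7 and 42.98 CPM in 4N cells and the pyruvate kinase *Pkm* at 83.97 and 167.1 CPM in 1N and 45 and 27.3 CPM in 4N cells. The ketone body enzymes *Oxct2a* and *Oxct2b* were higher as well (log2 fold changes 3.19 and 3.40), but are close paralogs whose reads could be shared. The glucose transporter *Slc2a3* was higher in 4N, at 507.1 and 593.7 CPM in 4N and 203.2 and 167.1 CPM in 1N cells (log2 fold change -1.41 ± 0.30 (SE), adjusted p = 6.33e-05). Taken per cell, 4 of the 29 were higher in 1N and 8 in 4N.

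**Figure D2:**
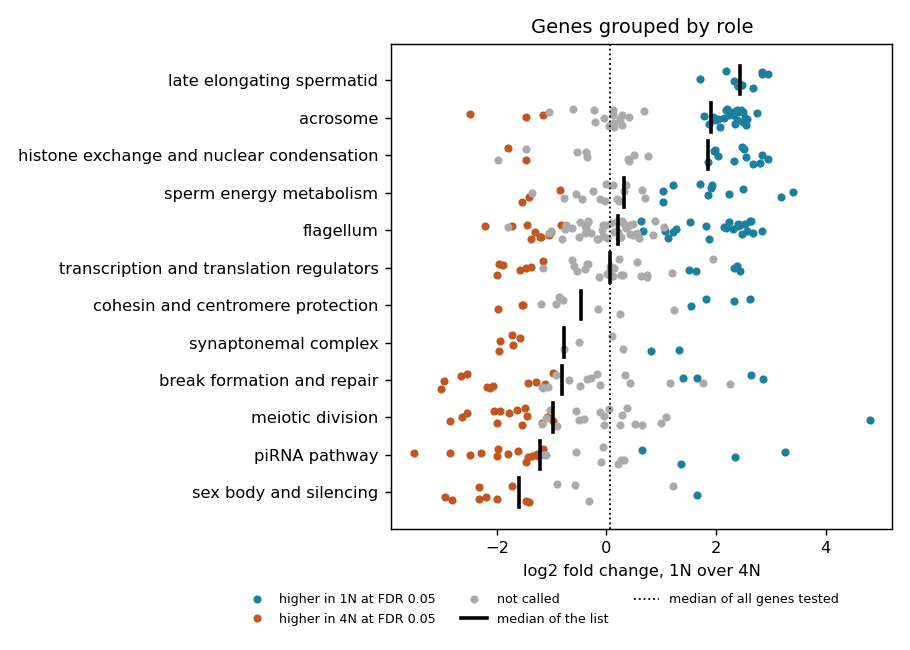
Each point is a gene tested, placed by its log2 fold change of 1N over 4N on the horizontal axis, in 12 groups by role on the vertical axis. Blue genes were called higher in 1N, orange genes higher in 4N and grey genes neither. Black lines are the medians of the groups, from -1.60 for the sex body to 2.44 for late elongating spermatids, and the dotted line is the median of all genes, 0.07. A gene can be in several groups, and all genes of late elongating spermatids are.

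The contrast of several lists was larger in replicate 2, but not of all. The median log2 ratio of CPM (with 1 CPM added) of the round spermatid panel was 1.51 in replicate 1 and 2.83 in replicate 2, that of the spermatocyte panel -0.72 and -1.51, and that of the acrosome genes 1.12 and 2.41. For the piRNA pathway the replicates gave -1.25 and -1.33 and for the sex body -1.56 and -1.68, for cohesins -0.61 and -0.63 and for the flagellum genes 0.14 and 0.016. With 1 pair of sums per replicate the difference between replicates was not tested. The cells whose panels went against the gate were more frequent in replicate 1, as given above, and their part in it was not tested.

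Genes on the X chromosome were next compared between the gates. They held 1.71% and 2.17% of the UMIs of 1N and 0.692% and 0.373% of those of 4N cells (mean ± SD 1.94 ± 0.322% and 0.532 ± 0.225%, n = 2; exact two-sided permutation p = 0.333, the smallest possible). Per cell the medians were 1.70% and 2.45% in 1N and 0.149% and 0.125% in 4N, and the ratio of their means was 15.2. Single 4N cells fell into a low and a high group. The share was at least 0.5%, a limit set after the values were seen, in 37 of 191 and 8 of 95 4N cells and in 176 of 192 and 85 of 94 1N cells, with 4 and 0 4N cells and 31 and 9 1N cells within a factor of 1.5 of the limit. All 38 4N cells with a higher spermatid panel were in the high group, where their median share was 2.26% and 2.40%. The panel holds 1 X-linked gene. The 4N cells with a higher spermatocyte panel had medians of 0.143% and 0.119%. In the 1N cells with a higher spermatocyte panel the medians were 0.620% and 0.456%. Of these 58 and 16 1N cells, 16 and 9 had a share under 0.5%. In the 2N gate the share was 1.58% and 1.18%.

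**Figure D3:**
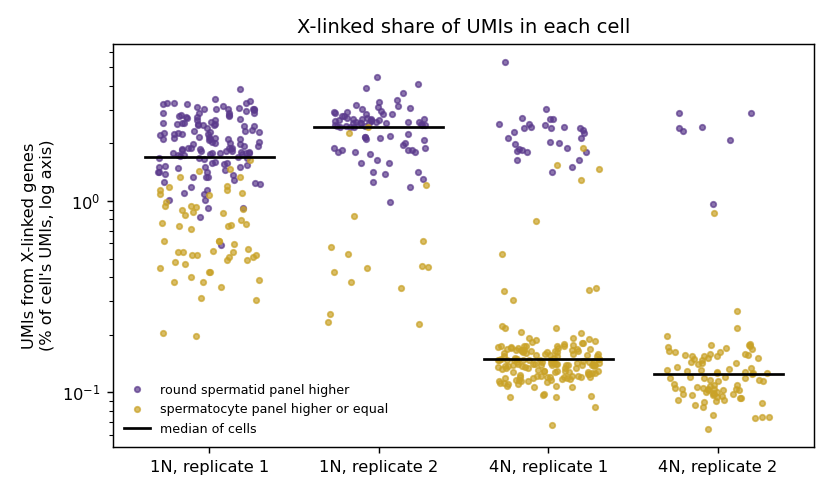
Each point is a cell, with the share of its UMIs from X-linked genes on a log axis, by gate and replicate. Purple cells have more UMIs of the round spermatid panel, yellow cells of the spermatocyte panel, and lines are medians (1.70% and 2.45% in 1N, 0.149% and 0.125% in 4N cells).

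Of 603 X-linked genes tested, 322 were higher in 1N and 1 in 4N cells (53.4% and 0.166%), against 17.8% and 13.3% of 18096 autosomal genes. A gene low in both gates was not tested, and one silent in 4N cells could pass the filter through the 1N gate alone. The median log2 fold change was 2.02 on the X and -0.01 on the autosomes. With only the cells that went with their gate 86.2% of the X-linked genes tested were higher in 1N, and taken per cell 16.9%. The 86.2% is a description, since those cells were chosen by panels that go with the X-linked share. Without replicate 2 of 4N 9.86% were higher in 1N, and without replicate 2 of 1N edgeR called 0 genes on any chromosome, as given above. The largest changes at a mean of at least 5 on the log2 CPM scale were in histone variants of spermatids, *H2al1m* at 52.8 and 120.7 CPM in 1N and 10.3 and 14.5 CPM in 4N cells (log2 fold change 2.87 ± 0.52 (SE), adjusted p = 1.24e-06), *H2al3* and *H2al1k*, followed by *Gm6760*, *Tmsb15a*, *Cypt3*, *Cylc1* and *Tspan6* (log2 fold changes 2.57 to 2.84). The H2al1 genes are a family of near-identical copies, and their reads are uncertain. *Cylc1*, a cytoskeletal protein of the sperm head, was at 161.4 and 262.01 CPM in 1N and 53.2 and 28.03 CPM in 4N cells. The exception was *Gm14698*, at 168.6 and 171.2 CPM in 4N and 79.8 and 51.6 CPM in 1N cells (log2 fold change -1.24 ± 0.42 (SE), adjusted p = 0.0156).

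On the Y chromosome 67 genes were higher in 1N (53.2% of those tested, median log2 fold change 1.96). Many are copies in large families, such as *Gm29277* and *Gm29089*, whose values were near-equal in every sum, so that they are not independent. Among the autosomes, chromosome 14 stood apart with 280 of 903 genes higher in 1N (31%) and a median log2 fold change of 0.86. Its genes were not checked for near-equal copies, so they may not be independent either. The other autosomes had 13.6 to 21.2% of genes higher in 1N and medians of -0.23 to 0.20.

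**Figure D4:**
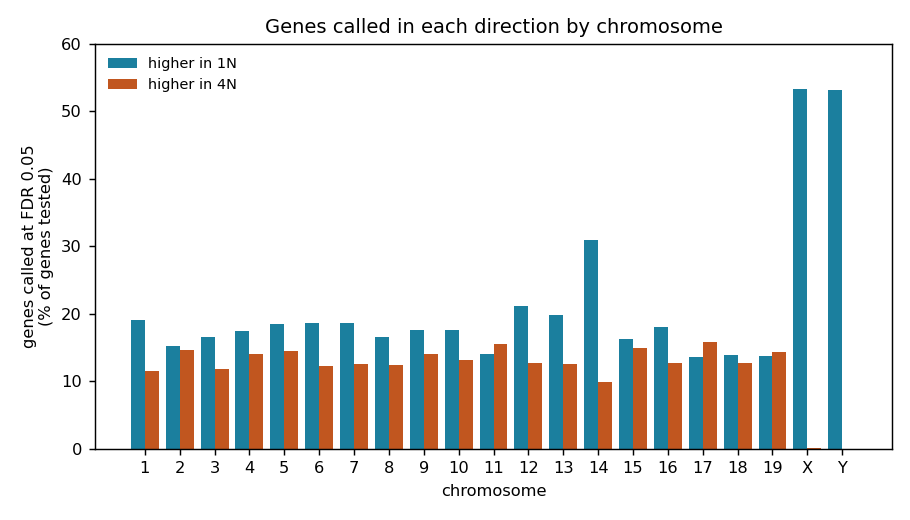
Share of the tested genes of each chromosome that were called higher in 1N (blue) or higher in 4N (orange) at a false discovery rate of 0.05. The X chromosome (53.4%) and the Y chromosome (53.2%) have the largest shares higher in 1N, followed by chromosome 14 (31%).

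Several X-linked housekeeping genes have autosomal copies, made by reverse transcription, that are used in the male germline. In 10 such pairs, 5 X-linked genes were higher in 1N and 5 not called, and their 10 log2 fold changes ranged from 0.57 for *Pgk1* (-0.25 taken per cell) to 2.60 for *Pdha1*, which was under 1 CPM. Of the autosomal copies, 3 were higher in 1N, 2 in 4N and 5 not called. Among all genes tested, 53.4% of X-linked genes were higher in 1N, and of autosomal genes 17.8% were higher in 1N and 13.3% in 4N. Counts from 10 pairs do not set these genes apart from those shares, so members are given as single values. *Cstf2*, a subunit of the cleavage stimulation factor of RNA 3′ ends, was at 33.1 and 56.9 CPM in 1N and 20.3 and 10.4 CPM in 4N cells, and its copy *Cstf2t* at 11.1 and 8.15 CPM in 1N and 41.4 and 39.98 CPM in 4N cells. The pair went opposite ways (log2 fold change 1.73 ± 0.55 (SE), adjusted p = 0.00909, and log2 fold change -1.93 ± 0.55 (SE), adjusted p = 0.00327). *Cetn2*, a centrin, was at 17.2 and 21.4 CPM in 1N and 5.13 and 3.59 CPM in 4N cells and its copy *Cetn1* at 800.9 and 967.2 CPM in 1N and 789.9 and 932.9 CPM in 4N cells, which did not pass the test. *Timm8a2*, a mitochondrial import factor, was higher in 4N (84.8 and 104.6 CPM in 4N and 17.9 and 25.8 CPM in 1N cells). *Ubl4a* and *Ubl4b* both were higher in 1N (log2 fold changes 2.00 and 2.55), and *Pgk2*, the glycolytic kinase of sperm, was at 559.8 and 653.7 CPM in 1N and 326.1 and 339.4 CPM in 4N cells (log2 fold change 1.02 ± 0.27 (SE), adjusted p = 0.00156). Reads of a gene and its copy may be shared where their sequences are alike.

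**Figure D5:**
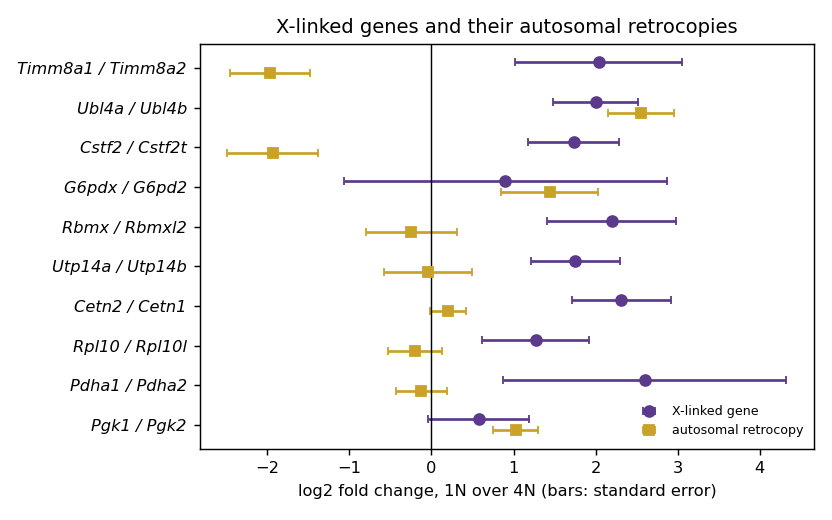
Log2 fold change of 1N over 4N for 10 X-linked genes (circles) and their autosomal copies (squares), with standard errors. All 10 X-linked genes lie above 0 (*Pgk1* was at -0.25 taken per cell), and of the copies *Cstf2t* and *Timm8a2* lie lowest.

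Among 17 pairs of a broadly expressed gene and its testis form, the forms did not move as a group. Of the testis forms 4 were higher in 1N and 3 in 4N, and of the broad forms 3 and 3, near the 19.3% and 12.9% of all genes. *Cycs*, somatic cytochrome c, was higher in 1N (42.5 and 31.8 CPM in 1N and 19.4 and 12.5 CPM in 4N cells) and *Cyct*, the testis cytochrome c, in 4N (355.1 and 436.5 CPM in 4N and 237.3 and 159.7 CPM in 1N cells). *Taf7*, a subunit of the transcription factor TFIID, was at 86.2 and 91.8 CPM in 4N and 29.9 and 27.8 CPM in 1N cells, and its X-linked testis form *Taf7l* at 48.2 and 49.3 CPM in 1N and 23.7 and 13.02 CPM in 4N cells. The lactate dehydrogenase *Ldhc* was at 1428 and 1536 CPM in 1N and 1484 and 1864 CPM in 4N cells and was not called. *Psma8*, the proteasome subunit of spermatocytes, was at 286.8 and 327.3 CPM in 4N and 88.3 and 71.7 CPM in 1N cells (log2 fold change -1.78 ± 0.37 (SE), adjusted p = 4.22e-05).

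The 12 genes with the largest increase in 1N cells, at a mean of at least 5 on the log2 CPM scale, were *Klk1b26*, *Cby3*, *1700080E11Rik*, *Gm4665*, *Defb33*, *Klk1b8*, *Car2*, *1700020A23Rik*, *Gm11634*, *Oxct2b*, *Gm498* and *Ttc24*. *Klk1b26*, a kallikrein-type protease (chr7:44012168-44016968), was at 38.99 and 82.2 CPM in 1N and 3.26 and 4.56 CPM in 4N cells (log2 fold change 4.03 ± 0.58 (SE), adjusted p = 5.36e-10). *Klk1b8*, of the same family of similar genes (chr7:43950664-43954941), was at 112.6 and 228.8 CPM in 1N and 13.8 and 16.1 CPM in 4N cells. *Car2*, a carbonic anhydrase (chr3:14886273-14900770), was at 86.9 and 159.5 CPM in 1N and 10.97 and 11.4 CPM in 4N cells (log2 fold change 3.55 ± 0.51 (SE), adjusted p = 4.17e-10), and *Defb33*, a beta-defensin gene, at 84.2 and 181.6 CPM in 1N and 9.47 and 12.8 CPM in 4N cells. The gates did not overlap in any of the 12, as in 6067 of the 6158 genes called. Since the 12 were chosen by the size of their change, this adds no support. *Oxct2b* lies within the *Bmp8b* locus on the same strand.

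The 12 genes with the largest increase in 4N cells were *Pou5f2*, *Gm14244*, *Phf2*, *Tdrd5*, *Gm21269*, *4933435G04Rik*, *Zufsp*, *Gm5878*, *Tomm34*, *Gclc*, *Pcbp1* and *1700006A11Rik*. *Pou5f2*, a POU-domain transcription factor of germ cells (chr13:78024902-78026295), was at 203.1 and 226.8 CPM in 4N and 7.38 and 27.4 CPM in 1N cells (log2 fold change -3.75 ± 0.48 (SE), adjusted p = 7.79e-12). It overlaps *Fam172a* on the same strand. *Phf2*, a histone demethylase (chr13:48801750-48871119), was at 114.3 and 142.5 CPM in 4N and 6.83 and 13.03 CPM in 1N cells, *Gclc*, the enzyme of the first step of glutathione synthesis (chr9:77754535-77794485), at 72.3 and 77.8 CPM in 4N and 6.91 and 6.07 CPM in 1N cells (log2 fold change -3.37 ± 0.55 (SE), adjusted p = 6.38e-08) and *Pcbp1*, an RNA-binding protein, at 283.9 and 311.03 CPM in 4N and 19.4 and 37.4 CPM in 1N cells. The gates did not overlap in any of the 12, which were also chosen by the size of their change. *Zufsp* could not be placed on the annotation.

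CREM binds the cAMP response element, and the letters of its core were searched in promoters (RefSeq on GRCm38.p6, 250 bases before to 50 after the start of the gene). TGACGT on either strand, which includes the full element TGACGTCA, was in 7.51% of 32851 promoters, in 10.1% of 2633 genes higher in 1N, in 11.6% of 1837 higher in 4N and in 11.5% of 9163 not called. The share in genes higher in 1N was not above that in the other genes tested. Of 15 promoters of the round spermatid panel 3 held it. These windows of 30 bases are shown since they are the only matches in the panel, with the core or its reverse complement in capitals, each 5′ to 3′ on the strand of its gene.
Tex36 (chr7:133602070-133602099, minus strand): ggagctctacagACGTCAcaagcttgtgag
Spata18 (chr5:73651311-73651340, plus strand): cagccggccgccACGTCAaggtttgtttaa
Izumo1 (chr7:45621703-45621732, plus strand): actgccaccctaTGACGTcacgatgggatg
The *Izumo1* window holds the full element. A match of letters is not a site of binding.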

How the data were processed

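Single cells of the PND30 testis were read by a modified STRT-seq. The authors deposited counts, the UMIs per gene and cell, with a table of genes and UMIs per cell. The submitters' processing notes name CASAVA 1.8, UMI-tools, STAR and featureCounts of Subread, with mm10 as the genome build. Gate, genotype and replicate were read from the cell names, since the series labels do not give them for each cell. The totals of all 1056 PND30 cells equalled the table, 4 cells of the 2 gates failed the filter, and in the whole series 12692 of 13032 cells passed it. No doublet caller was run. Cells were picked singly, and whether some of them were joined was not tested.

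UMIs were summed per gate and replicate and compared with edgeR 4.0.16 in R 4.3.3 (TMM, filterByExpr, quasi-likelihood test with replicate as a block, Benjamini-Hochberg adjustment, false discovery rate 0.05). The script was tested on simulated data. The standard error is the log2 fold change divided by the square root of F. Shares per cell were computed with Python 3.11.15, numpy 2.4.6, pandas 2.3.3 and scipy 1.17.1, and intervals are Wilson's. Both gates of a replicate come from the same mouse, which is where the pairing comes from; their deviations from the gate means correlated at 0.145 over 19167 genes, in the only 2 replicates. The p-values rest on how the difference between gates varied between these 2 mice, with the spread estimated over genes together. They do not measure the spread of a single gene between animals. The sums held 16808218 to 78005360 UMIs, and genes of few UMIs are the least precise. Gene positions are those of GENCODE M21 on mm10, which matched 30477 of 31053 genes once. Levels were not scaled by length, since 3′ ends were counted, and single genes are compared only within a gene. Panel sums set side by side depend on how well the 3′ ends of their genes were captured, so which panel is higher is a rule for cells and not a ratio of transcripts.

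The members, gene lists and pairs were chosen with earlier results of these data known. Counts of a list are over its members tested, and 15 names of the lists did not match a gene name in the files and are not analysed here. The values of 1 list member are not reported here. Named genes were the 4 markers, members of lists and pairs chosen by role, and in each direction the 12 with the largest log2 fold change among genes called, if both replicates went the same way and log2 CPM averaged 5 or more. The globins, *Star*, *Gfra1* and *Id4*, the X-linked genes beyond the lists and the overlapping genes were named after their values were seen. Alternatives were other normalizations, filters, thresholds, tools (DESeq2 1.42.0, limma 3.58.1) and cells, and sums left out. One sum per library was added after the data were seen.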

Additional observations from a re-analysis of the deposited data

How the results depend on the processing

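Gate and library cannot be told apart, each gate has 2 mice, and depth limits the genes of few UMIs. Called genes were fewest when a sum was left out, a fit without the block in which the lone sum is assumed to vary like the other gate: 0 (without replicate 2 of 1N) to 6614 in all, 0 to 3569 higher in 1N, 0 to 3045 higher in 4N, and of the X-linked genes tested 0% to 45.1% higher in 1N and 0 to 2 genes higher in 4N. Without replicate 2 of 1N, 6589 genes had an unadjusted p under 0.05 in edgeR, and without replicate 2 of 4N 2213 were called, 1219 higher in 1N and 994 in 4N, with 9.86% of the X-linked genes higher in 1N. The cause was not tested. A replicate left out whole leaves 1 pair, which gives values and no test.

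Without the replicate block 5074 genes were called, 4826 of them also called in the paired fit in the same direction. With the number of cells as library size 1211 were higher in 1N and 5807 in 4N, of the X-linked genes 16.9% were higher in 1N and 2 in 4N, and the median of all genes was -0.75; with total UMIs in place of TMM it was -0.09. With only the cells whose panels go with the gate, 10362 were called, 6162 higher in 1N and 4200 in 4N, with 86.2% of the X-linked genes higher in 1N. These numbers are descriptions, since the cells were chosen by levels in the same data. With each cell thinned, 1381 were higher in 4N, and of the X-linked genes 89.7% in 1N and 0 in 4N by edgeR, in 10722 genes tested; medians of 3739 and 4106 genes per cell in 1N and 4N stood against 8924 and 10254. One sum per library gave 3784 higher in 4N.

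Genes whose direction turned were, taken per cell, *Acr* (log2 fold change -0.54), *Ccnb1* (-0.18), *Ccnb2* (-0.57), *Cetn1* (-0.63), *Catsperz* (-0.61), *Crem* (-0.20), *Gtsf1* (-0.18), *Pgk1* (-0.25), *Syce3* (-0.015) and *Sycp1* (-0.53). Of these *Gtsf1* and *Syce3* had been called. *Ccna1*, not called, turned to 0.13 with limma-voom, 0.35 after thinning, 0.26 without replicate 2 of 1N, 0.10 without replicate 2 of 4N and 0.16 with one sum per library. *Ldhc*, also not called, turned to 0.018 with genes of at least 1 UMI, 0.015 with limma-voom, 0.29 after thinning, 0.14 without replicate 1 of 1N, 0.16 without replicate 2 of 4N and 0.067 with one sum per library. *Catsper2* was at 0.031 after thinning. Without replicate 2 of 1N *Cetn1* was at -0.040 and *Pgk1* at -0.11. The other named genes kept their direction in every alternative that gave a fit. The cause was not tested.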
